A study of Mus musculus with 3 samples.

Results

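Tumor1 is 1 of 25 clusters that the authors named in single-cell RNA profiles of 3 mouse melanomas. Its members are the cells that carry the name Tumor1 in the deposited cell table, 261 of 12670 cells in all. The mice were on a C57BL/6J background and carried Tyr.CreER, Rosa26 LSL.tdTomato and Braf LSL.V600E among their alleles, which the untreated tumor shared with the treated ones. 4-OH tamoxifen applied to the skin induced the tumors. The Tyr promoter confines the Cre to melanocytes and cells that use that promoter, where it switches on mutant Braf and the reporter. There was 1 tumor in each of 3 groups: an untreated one, one that had regressed on vemurafenib, an inhibitor of mutant Braf, and one that had progressed on it. The labels give neither age nor sex. No difference between tumors could be set against a spread between animals, so all intervals below cover counting error only and no test was made.

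Melanocytes arise from the neural crest, the same embryonic source as Schwann cells, the glia that wrap peripheral nerves. The transcription factor Sox10 is used by both, whereas Dct, Pmel and Tyrp1 serve the making of pigment. Mutant Braf drives the MAPK cascade.

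From the marker genes given for the cluster, 1 promoter window each of Pdgfa and Sfrp5 is shown first, with those of 3 leading genes. They are shown because the cluster is described by these genes and by Sox10. Sequences are RefSeq's, build GRCm38.p6, from 250 bases before to 50 bases after a transcript start, in the direction of the gene. Capitals mark ACAAAG or ACAATG, letters known from sites of Sox factors, searched on both strands, and the motifs cannot overlap at the same place. Of 32851 such mouse promoters, 18.7% held ACAAAG, 12.6% held ACAATG and 28.6% held either. Among the 20 leading genes described below, 16 had an entry, with 20 windows, of which 1 held a motif, and 1 of the 3 windows of the given markers held it.
Pdgfa (chr5:138994232-138994531, minus strand): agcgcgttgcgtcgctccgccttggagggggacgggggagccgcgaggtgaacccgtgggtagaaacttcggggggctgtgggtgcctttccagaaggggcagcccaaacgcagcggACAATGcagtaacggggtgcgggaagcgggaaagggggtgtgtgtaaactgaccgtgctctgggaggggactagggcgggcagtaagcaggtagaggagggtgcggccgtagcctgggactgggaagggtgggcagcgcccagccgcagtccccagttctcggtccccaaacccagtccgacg
Sfrp5 (chr19:42202203-42202502, minus strand): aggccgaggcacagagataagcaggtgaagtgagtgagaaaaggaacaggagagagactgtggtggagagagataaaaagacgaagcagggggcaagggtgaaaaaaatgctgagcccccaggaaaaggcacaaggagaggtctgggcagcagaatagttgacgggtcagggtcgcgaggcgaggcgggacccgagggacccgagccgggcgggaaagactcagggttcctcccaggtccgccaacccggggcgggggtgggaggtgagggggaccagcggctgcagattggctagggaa
Slc35f1 (chr10:52690251-52690550, plus strand): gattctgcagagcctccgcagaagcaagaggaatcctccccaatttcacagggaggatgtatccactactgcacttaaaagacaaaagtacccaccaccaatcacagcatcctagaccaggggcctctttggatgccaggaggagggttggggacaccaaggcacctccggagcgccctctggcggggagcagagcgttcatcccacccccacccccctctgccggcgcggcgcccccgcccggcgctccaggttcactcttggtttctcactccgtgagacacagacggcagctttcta
Kcna6 (chr6:126740625-126740924, minus strand): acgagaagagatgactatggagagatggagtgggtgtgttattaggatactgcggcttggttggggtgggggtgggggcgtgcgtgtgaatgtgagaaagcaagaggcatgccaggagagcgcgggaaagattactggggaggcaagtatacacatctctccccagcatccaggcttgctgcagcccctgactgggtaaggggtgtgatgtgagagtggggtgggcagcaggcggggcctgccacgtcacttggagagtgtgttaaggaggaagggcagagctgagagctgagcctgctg
Bche (chr3:73708366-73708665, minus strand): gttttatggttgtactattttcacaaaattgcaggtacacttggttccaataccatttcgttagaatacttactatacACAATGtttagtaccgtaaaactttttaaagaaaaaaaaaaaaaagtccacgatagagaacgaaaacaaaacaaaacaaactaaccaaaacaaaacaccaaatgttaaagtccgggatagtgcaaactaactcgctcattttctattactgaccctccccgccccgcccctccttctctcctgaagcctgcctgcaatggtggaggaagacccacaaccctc
The motif stood 133 bases before the start in the printed window of Pdgfa and 172 bases before it in Bche. A further window of Pdgfa, chr5:138994895-138995194, held no match and is not printed. A match is a description of letters and no evidence of binding.

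The libraries held 22202192 untreated, 12413268 regressed and 26948940 progressed unique molecular identifiers (UMIs, tags that count each captured RNA molecule once), with medians of 4496, 2658 and 4566 per cell. The regressed tumor also stood apart in Tumor1: Y-linked transcripts reached 265 CPM (UMIs per 1000000 UMIs of the cluster) and Xist 0, against 1845 and 1911 CPM of Xist in the untreated and progressed ones, and haemoglobin took 0.314% of its UMIs. Drug response, sex and depth therefore cannot be told apart in any contrast with that tumor. Cells were numbered rather than given barcodes, and 0 numbers were shared between libraries.

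Of 4095 untreated cells 44 were Tumor1 (1.07%, exact 95% interval 0.782 to 1.44), 61 of 3726 regressed cells (1.64%, 1.25 to 2.10) and 156 of 4849 progressed cells (3.22%, 2.74 to 3.75). Their UMIs summed to 220614, 151046 and 828298. The median cell held 3772, 1712 and 4721 UMIs, against 4499, 2686 and 4558 in all other cells of the same libraries. The share was thus highest in the progressed tumor, and the regressed cells were the shallowest. As a share of cells with a reporter UMI, Tumor1 made up 5.66%, 5.84% and 14.6%.

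The cluster was first described by the reporter, the sum of the features tdTomato and tWPRE. The study's authors marked tumor cells by transgene expression, and both features are among the given markers. A high reporter level thus follows from how the cluster was named and is no check of the label. The labels do not describe tWPRE, a name known from a viral element placed behind transgenes. It gave nearly all reporter UMIs, since tdTomato itself was counted 2, 0 and 12 times. Reporter RNA reached 2692 CPM in untreated, 1509 in regressed and 4275 in progressed Tumor1 cells, the highest of 21, 21 and 18 clusters of at least 10 cells. The next clusters were NK_T_Cytolytic at 104 CPM, Tumor2 at 1308 CPM and Dividing at 144 CPM. Among clusters of at least 10 cells, Tumor1 thus stood far above all others in 2 tumors, and close to Tumor2 in the regressed one. Tumor2 had only 4 cells in the untreated and 4 in the progressed tumor and was not ranked there. A reporter UMI was found in 2 and 4 of these cells.

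**Figure D1:**
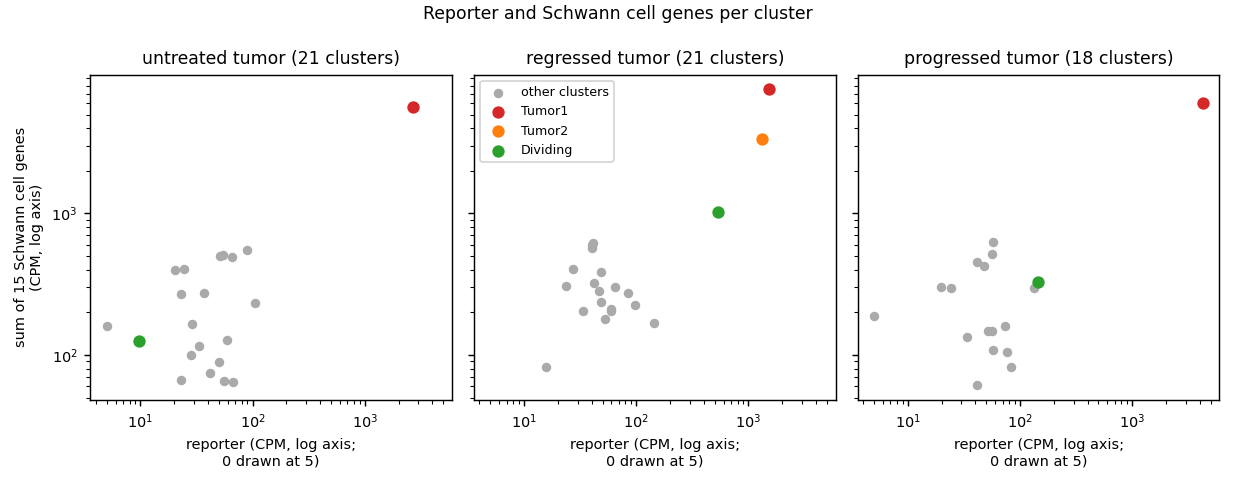
Reporter RNA (x axis, CPM, log scale) against the sum of 15 Schwann cell genes (y axis, CPM, log scale) for each cluster of at least 10 cells in the untreated, regressed and progressed tumor. Tumor1 lies at the upper right in all 3, with reporter levels of 2692, 1509 and 4275 CPM, and Tumor2, plotted for the regressed tumor only, lies nearest to it at 1308 CPM. The cluster Dividing is in green and all others in grey.

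A reporter UMI was found in 43 of 44 untreated, 40 of 61 regressed and 152 of 156 progressed Tumor1 cells. It was also found in 17.7%, 17.6% and 18.96% of all other cells. Macrophages, in which the Tyr promoter should be silent, held it in 16.7%, 6.29% and 21.8% of cells, at medians of 3429, 1388 and 3450 UMIs. The source of the reporter UMIs in these cells was not tested. With every cell thinned to 1000 UMIs, 82.9% (67.9 to 92.8), 73.3% (58.1 to 85.4) and 94.7% (89.8 to 97.7) of Tumor1 cells kept a reporter UMI, against 5.12%, 6.82% and 4.67% of other cells. Thinning left out 3, 16 and 5 Tumor1 cells.

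Pdgfa, a ligand of the PDGF receptors found on mesenchymal cells, was the steadiest of the given markers. It stood at 703 CPM (596 to 822) in untreated, 867 (725 to 1029) in regressed and 1017 (949 to 1088) in progressed Tumor1 cells, against 23.2, 33.8 and 26.8 CPM in other cells. Sfrp5, a secreted inhibitor of Wnt ligands, was not steady. It reached 394 CPM (87 UMIs in 20 cells), 19.9 CPM (3 UMIs in 3 cells) and 241 CPM (200 UMIs in 71 cells). In the regressed tumor its level lay near the 17.3 CPM of other cells. In the untreated tumor the Stroma4 cluster held it at 348 CPM (895 UMIs over 599 cells), close to Tumor1.

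The genes that stood furthest above other cells were ranked in the cluster. Of 2742 genes with at least 50 CPM in Tumor1 of every library, 91 (3.32%) were at least 8-fold above all other cells in all 3, and of 2789 genes with at least 50 CPM in other cells of every library, 275 (9.86%) were at least 2-fold below them. The 20 leading genes, ranked by their lowest ratio over the 3 libraries, ran from Slc35f1, with a lowest log2 ratio of 7.24, to Gm11816 at 5.14, and Aatk fell just outside at 5.12. The cells were clustered on their expression, so these ratios describe the cluster and test nothing.

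Voltage-gated potassium channels were the first group among the 20. Kcna1 stood at 984, 1933 and 1422 CPM in untreated, regressed and progressed Tumor1 cells, against 0.819, 15.4 and 4.25 CPM in other cells. Kcna2 reached 195, 225 and 53.1 CPM, and Kcna6 131, 179 and 82.1 CPM. All 3 channels lay at under 20 CPM in other cells, and Kcna2 and Kcna6 were lowest in the progressed tumor. Proteins of the glial membrane formed the next group. Cmtm5 stood at 204, 278 and 239 CPM, and Mal, a protein of myelin membranes, at 54.4, 185 and 66.4 CPM.

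Adhesion and signalling molecules followed. Ptprz1, a receptor phosphatase of glia, stood at 236, 503 and 420 CPM, and L1cam, an adhesion molecule of axons and non-myelinating Schwann cells, at 322, 430 and 188 CPM. Gfra3, the co-receptor of artemin, reached 272, 225 and 327 CPM, with at most 2.37 CPM in other cells. Bche, which encodes butyrylcholinesterase, was at 104, 384 and 117 CPM, highest in the regressed tumor. The remaining members were Slc35f1 (218, 424 and 168 CPM), Klk9, Dtna, Gm2115, Prima1, Ajap1, Dlgap1, Rxrg, Ttyh1, Pcdh20 and Gm11816. In the regressed tumor the other cluster with the highest level was Tumor2 for most of them, at 211 CPM for Kcna1 and 168.6 CPM for Bche.

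**Figure D2:**
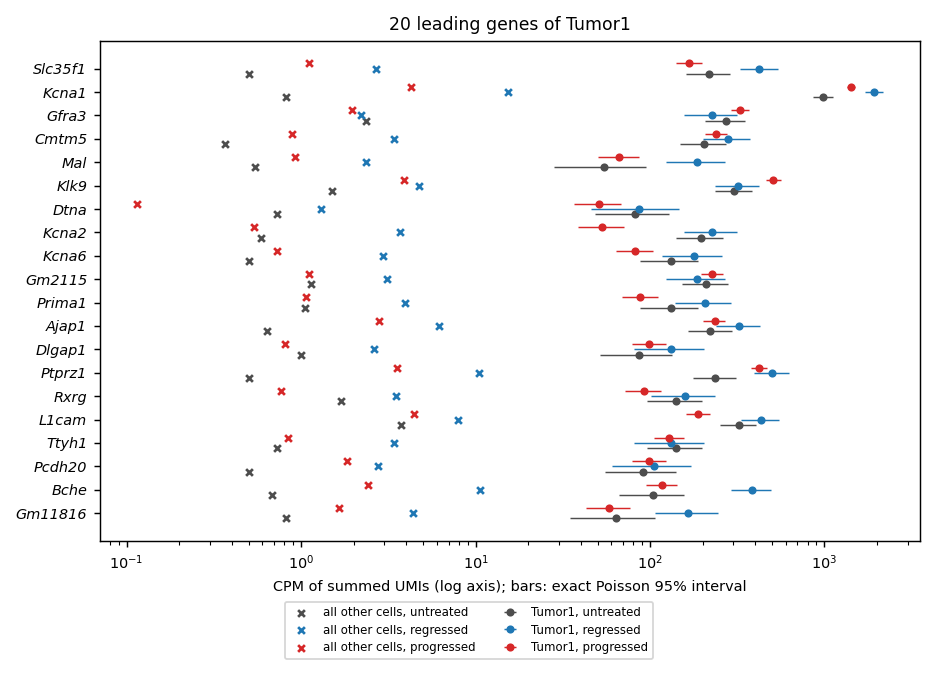
The 20 leading genes of Tumor1 (rows) with their CPM on a log axis in Tumor1 (circles, with exact Poisson 95% intervals) and in all other cells of the same library (crosses), in grey, blue and red for the untreated, regressed and progressed tumor. Every circle lies far to the right of the crosses of its gene, as for Kcna1 at 984, 1933 and 1422 CPM against 0.819, 15.4 and 4.25 CPM.

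A list of 15 Schwann cell genes summed to 5612 CPM in untreated, 7541 in regressed and 6020 in progressed Tumor1 cells, against 321, 508 and 344 CPM in other cells. Among clusters of at least 10 cells, Tumor1 ranked first for this list in all 3 libraries. The next were Stroma7 at 553 CPM, Tumor2 at 3387 CPM and Stroma7 at 624 CPM. Tumor2, with 4 cells in the untreated and 4 in the progressed tumor, was not ranked there. All of those cells held at least 3 of the 15 genes. At least 8-fold above other cells were 11, 11 and 12 of the 15 genes, where the shares among all genes compared were 3%, 3.58% and 2.81%. Sox10 stood at 730, 814 and 672 CPM, in 39, 44 and 139 cells. S100b, a calcium-binding protein of glia, was at 820, 867 and 770 CPM. These genes differed little between tumors. Genes of compact myelin stood low, with Mbp at 12, 0 and 14 UMIs.

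Markers of Schwann cells and the reporter met in most Tumor1 cells. At least 3 of the 15 Schwann cell genes were detected in 44 of 44, 54 of 61 and 153 of 156 Tumor1 cells, and in 8.69%, 14.98% and 12.7% of other cells. Reporter and at least 3 Schwann cell genes were found together in 43, 39 and 150 cells. At least 3 Schwann cell genes without a reporter UMI were found in 1, 15 and 3 cells, and 0, 6 and 1 cells had neither. A list of 15 neural crest genes stood at 1355, 1966 and 1446 CPM, with Sox10 giving 45.5% to 48% of its UMIs. Tumor1 also ranked first for it in every library among clusters of at least 10 cells. That minimum left out Tumor2 in the untreated and progressed tumors.

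Pigment genes were near absent. Dct, Pmel and Tyrp1 together gave 1, 2 and 14 UMIs in Tumor1, and 0 cells held 10 or more of them. The list of 21 melanocyte genes that the study used summed to 576, 1026 and 361 CPM, against 281, 425 and 288 CPM in other cells, but Zeb2, a transcription factor also used by Schwann cells, gave 71.4% to 80.5% of its UMIs. Zeb2 stood at 449, 847 and 247.5 CPM. Mitf, the central regulator of melanocytes, had 8, 8 and 16 UMIs. The 8-gene melanocyte list stood at 249, 271 and 199 CPM, and S100a1 gave 85% to 92% of it. By its markers the cluster is thus a reporter-positive group led by Schwann cell genes, and it is called Tumor1 throughout.

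Leukocyte, endothelial and fibroblast markers stood below the pooled other cells, which hold those cell types, whereas pericyte markers stood above the pool. Among 21, 21 and 18 clusters of at least 10 cells, Tumor1 ranked 10, 18 and 11 for leukocyte markers. It ranked 18, 16 and 16 for endothelial and 13, 8 and 10 for fibroblast markers. Leukocyte markers summed to 331, 258 and 94.2 CPM in Tumor1 against 2068, 2078 and 812 CPM in other cells, and 4, 3 and 2 cells held at least 3 of their UMIs. All 6 of these genes were at least 2-fold below other cells in each library, where 10.7%, 12.3% and 9.2% of all genes compared were. Endothelial markers gave 2, 3 and 1 UMIs, and Pecam1 was at 0 in all 3. Fibroblast markers summed to 5040, 7097 and 5673 CPM, against 31320, 22979 and 34095 CPM in other cells. Pericyte markers stood at 263, 477 and 258 CPM against 104, 86.9 and 85.5 CPM in other cells. Tumor1 ranked 2, 2 and 1 among the clusters for that list, and Cspg4, also known from glial precursors, made up 96% to 98% of its UMIs. Perineurial genes stood at 190, 364 and 189.5 CPM, below the 364, 609 and 350 CPM of other cells.

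Several lists of other cell types differed between tumors, in Tumor1 and, but for the macrophage list, in other cells. Neutrophil markers stood at 1473, 490 and 3.62 CPM in Tumor1, and at 17123, 2866 and 79.4 CPM in other cells. Macrophage markers stood at 780, 457 and 150 CPM in Tumor1, while other cells held 2048, 1773 and 1871 CPM, and Tumor1 ranked 5, 6 and 7 among the clusters. Lyz2 gave 51% to 73% of these Tumor1 UMIs. Without it the log2 ratio of regressed over untreated turned from -0.77 to 0.86. Progressed over regressed went from -1.61 to -1.74 and progressed over untreated from -2.38 to -0.88. Mast cell markers stood at 13.6, 523 and 62.8 CPM, against 385, 3532 and 1324 CPM. NK and T cell markers stood at 9.07, 106 and 4.83 CPM, against 75.5, 573 and 104 CPM. All 3 lists stayed below other cells in every library. Haemoglobin and other red blood cell genes stood at 49.9, 1622 and 0 CPM, against 1476, 22006 and 46.5 CPM. Keratinocyte markers reached 141, 1020 and 810 CPM, against 3080, 4928 and 4979 CPM. Their log2 ratio of regressed over untreated was 2.86 in Tumor1 and 0.72 in cells outside Tumor1 and Tumor2, and 499 of the 698 UMIs of Krt5, Krt14 and Krt17 in the progressed Tumor1 cells lay in 1 cell. Their part in the differences below was not tested.

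Within the regressed tumor Tumor1 was set beside Tumor2, the other cluster rich in reporter RNA, with 349 cells and a median of 768 UMIs. Tumor2 carried the pigment genes: Dct had 665 UMIs (1495 CPM) there and 1 UMI in Tumor1, and Pmel 199 UMIs (447 CPM) and 1 UMI. Spp1, which encodes the secreted protein osteopontin, stood at 2205 CPM in Tumor2 and 52.96 in Tumor1. Bnip3 and Ero1a, genes induced by low oxygen, stood at 398 and 510 CPM in Tumor2 and 13.2 and 19.9 CPM in Tumor1. Higher in Tumor1 were other genes. Scn7a, a sodium channel of non-myelinating Schwann cells, stood at 748 CPM in Tumor1 and 8.99 in Tumor2, Kcna1 at 1933 and 211 CPM, and Entpd2 at 636 and 26.97 CPM. Cdkn2a, an inhibitor of the cell cycle, was at 536 and 47.2 CPM. Genes known from nerve and glia were found on both sides, since Syt4 stood at 19.9 CPM in Tumor1 and 919 in Tumor2, Gfap at 19.9 and 189 CPM and Dhh at 192 and 315 CPM, and Mbp had 0 and 54 UMIs. The median log2 ratio over 5493 genes was -0.16.

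In the Dividing cluster, 5 of 43 cells from the untreated tumor, 41 of 75 from the regressed and 39 of 147 from the progressed one held the reporter, and 7, 23 and 33 held at least 3 Schwann cell genes. These reporter shares were 11.6% (3.89 to 25.1), 54.7% (42.7 to 66.2) and 26.5% (19.6 to 34.4), at medians of 11361, 889 and 11402 UMIs. The shares of macrophages were 16.7%, 6.29% and 21.8%. Only the regressed share had an interval above the share of macrophages. The intervals of the untreated and progressed shares held the macrophage values, at over 3 times the depth of macrophages. Whether dividing cells of the Tumor1 kind were placed there was not tested. Tumor1 itself held 2 or more cell cycle UMIs in 4, 3 and 27 cells.

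Reporter levels within Tumor1 differed between tumors. The log2 ratio was -0.83 (-1.06 to -0.61) for regressed over untreated, 1.502 (1.31 to 1.70) for progressed over regressed and 0.67 (0.54 to 0.79) for progressed over untreated. In cells outside Tumor1 and Tumor2 the same ratios were 0.39, -0.05 and 0.35. Among cells thinned to 1000 UMIs the median was 2, 2 and 4 reporter UMIs. Thinning left out 16 of the 61 regressed cells, of which 14 had 0 reporter UMIs, so these medians do not speak to the lower regressed level. Braf had 1, 5 and 18 UMIs in Tumor1. Tags read at transcript ends lie away from the mutated base, so they do not check the allele.

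**Figure D3:**
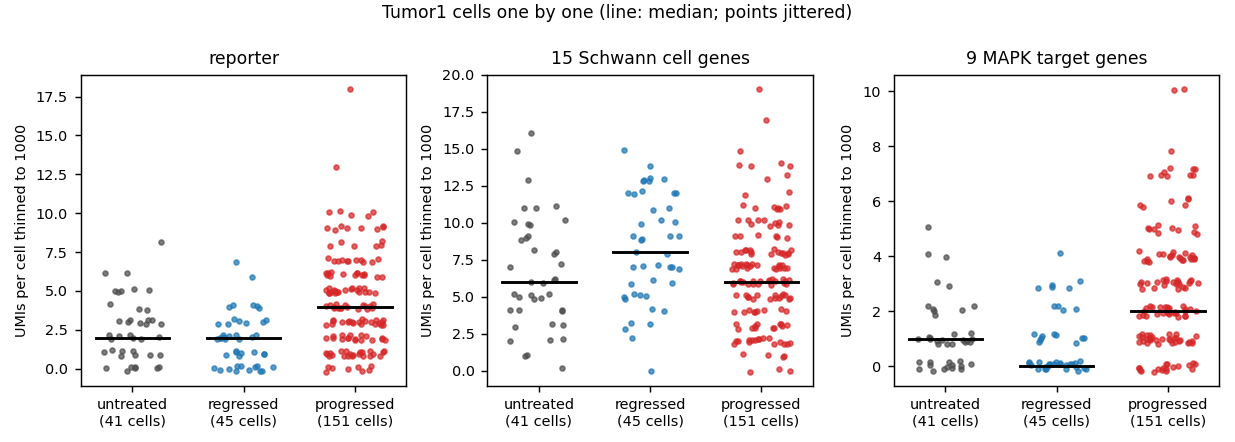
UMIs per Tumor1 cell after thinning to 1000 UMIs, for the reporter, the 15 Schwann cell genes and the 9 MAPK target genes (panels), with 1 jittered point per cell and a line at the median, in 41 untreated, 45 regressed and 151 progressed cells. The reporter medians are 2, 2 and 4 UMIs, the Schwann cell medians 6, 8 and 6, and the MAPK medians 1, 0 and 2.

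Gene by gene, Tumor1 was compared between tumors where at least 20 UMIs were counted in the pair. Regressed over untreated, 438 of 3742 genes (11.7%) were at least 2-fold higher and 470 (12.6%) at least 2-fold lower. Progressed over regressed, 1010 of 7029 (14.4%) were higher and 885 (12.6%) lower, and progressed over untreated 785 of 7168 (11%) and 436 (6.08%). With TMM scaling these became 362 and 609, 1455 and 559, and 983 and 326, so the share of higher genes among them moved from 48.2% to 37.3%, from 53.3% to 72.2% and from 64.3% to 75.1%. TMM moves every log2 ratio by -0.13, 0.24 and 0.11. Ratios below are set beside the same ratios in cells outside Tumor1 and Tumor2, called the surrounding cells.

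The genes highest in regressed over untreated Tumor1 cells, by the bound of the interval nearest 0, included Fgl2, a fibrinogen-like protein. It stood at 104 CPM in untreated, 2152 in regressed and 398 in progressed Tumor1 cells, a log2 ratio of 4.37 (3.76 to 5.05), against 0.34 in the surrounding cells. Dkk3, a member of the Dickkopf family of secreted proteins, was counted in 1 untreated, 6 regressed and 18 progressed cells, at 4.53, 245 and 88.1 CPM. Its log2 ratio was 5.76 (3.19 to 11.1) against -0.83. Fgl2 and Dkk3 were thus far higher in regressed than in untreated Tumor1 cells, where the surrounding cells differed by less than 2-fold. Without the cell of each tumor that held the most, the ratio was 4.66 for Fgl2. For Dkk3 it fell to 3.69, a bound from 24 UMIs against 0.

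The other members of the upper group moved with the library. Mir6236 (log2 6.70, 4.17 to 12.02, from 1 untreated UMI, against 5.82), Mir6240 (29 UMIs against 0, at least 14.1-fold higher) and the mast cell protease Tpsb2 (29 against 0, at least 14.1-fold) were higher in the surrounding cells too, by log2 8.10 for Mir6240 and 3.51 for Tpsb2.

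The genes lowest in regressed over untreated Tumor1 cells included Cxcl1, Cxcl5, Serpina3n, Gadd45g and Rn7sk. The neutrophil-attracting chemokine Cxcl1 was counted 70, 0 and 62 times, at least 16.0-fold lower in the regressed ones, and its log2 ratio was -3.24 in the surrounding cells. Cxcl5, a related chemokine, had 65, 0 and 2 UMIs, and 60.0% of the untreated ones lay in 1 cell. Serpina3n, a protease inhibitor of injured tissue, stood at 589, 19.9 and 27.8 CPM, a log2 ratio of -4.89 (-7.19 to -3.31) against -2.06. Gadd45g, a stress response gene, had 55, 0 and 18 UMIs, at least 12.6-fold lower in the regressed tumor, against a log2 ratio of -1.95 in the surrounding cells. Of the 53 untreated UMIs of Rn7sk, 67.9% lay in 1 cell.

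From the regressed to the progressed tumor, Tumor1 cells differed most upward in 6 genes. Tnfrsf12a, the receptor of the cytokine TWEAK, stood at 612 CPM in untreated, 72.8 in regressed and 1047 in progressed Tumor1 cells. Its log2 ratio of progressed over regressed was 3.85 (2.999 to 4.85), against 2.17 in the surrounding cells. Pthlh, which encodes a parathyroid-hormone-related protein, stood at 63.5, 26.5 and 458 CPM, a ratio of 4.11 (2.74 to 5.99) against -0.27, and 39.1% of its progressed UMIs lay in 1 of 60 cells. Phlda1, a target of MAPK signalling, stood at 807, 324 and 1957 CPM, a ratio of 2.59 (2.18 to 3.03) against 2.11. Pthlh was higher in Tumor1 and not in the surrounding cells, whereas Phlda1 was higher in both.

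Klk10, a secreted protease, and Tagln, an actin-binding protein of contractile cells, had nearly all their Tumor1 UMIs in the progressed tumor. Klk10 had 1, 5 and 270 UMIs, the last in 51 cells, and its log2 ratio was 3.30 (2.06 to 4.93) over regressed and 6.17 (3.68 to 11.5) over untreated, against -0.50 and 0.90. Tagln had 0, 0 and 109 UMIs in 28 cells, at least 6.63-fold over regressed and at least 9.68-fold over untreated, against log2 ratios of 2.02 and 0.87. The non-coding gene 1110038B12Rik had 44, 0 and 111 UMIs, at least 6.75-fold higher in progressed than in regressed cells, against a log2 ratio of 1.53 in the surrounding cells.

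Lower in progressed than in regressed Tumor1 cells were S100a8, S100a9, Mir6236, Mir6240, Ifitm1 and Gap43. S100a8, a calcium-binding protein of neutrophils, stood at 698, 318 and 1.21 CPM, with a log2 ratio of -8.04 (-13.4 to -5.49) against -5.17 in the surrounding cells, and S100a9 at 630, 126 and 1.21 CPM against -5.37. The interferon-induced gene Ifitm1 stood at 81.6, 99.3 and 6.04 CPM, a ratio of -4.04 against -2.00. All 3 were lower in the surrounding cells too. Gap43, a growth cone protein also made by Schwann cells after injury, stood at 49.9, 159 and 10.9 CPM, a ratio of -3.87 (-5.16 to -2.71) against -0.90, from 24 regressed UMIs in 5 cells.

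Between the progressed and the untreated tumor, Dhh stood out as a gene of the Schwann lineage, the ligand with which these cells pattern the nerve sheath. It stood at 27.2 CPM in 3 cells, 192 in 16 cells and 339 in 87 cells, a log2 ratio of 3.64 (2.50 to 5.10) against 1.37. Pnlip, a lipase known from the pancreas, had 0, 0 and 62 UMIs, the last in 28 cells, at least 5.50-fold higher, against a log2 ratio of 1.33. Mgp, a matrix protein that limits calcification, stood at 403, 3469 and 3029 CPM, but 58.4%, 76.1% and 38.7% of its UMIs lay in 1 cell of each tumor. Krt14, a keratin of the basal epidermis, stood at 31.7, 271 and 325 CPM, and its ratio of 3.36, against 0.34, became 1.68 without the cell of each tumor that held the most.

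Lower in progressed than in untreated Tumor1 cells were, besides S100a8 and S100a9, the inflammatory genes Cxcl2 (1088, 99.3 and 4.83 CPM), Il1b (644, 99.3 and 2.41 CPM) and Cxcl5. Of their untreated UMIs, 80.8% of Cxcl2 and 88.7% of Il1b lay in 1 cell. The log2 ratios of -7.82 for Cxcl2 and -8.06 for Il1b, which became -6.01 for Il1b without the top cells, were set beside -4.79 and -4.51 in the surrounding cells. Cldn11, a tight junction protein of myelinating glia, had 55, 1 and 2 UMIs, of which 90.9% of the untreated ones lay in 1 cell, and its ratio of -6.69, against 0.75, became -2.75 without the top cells.

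**Figure D4:**
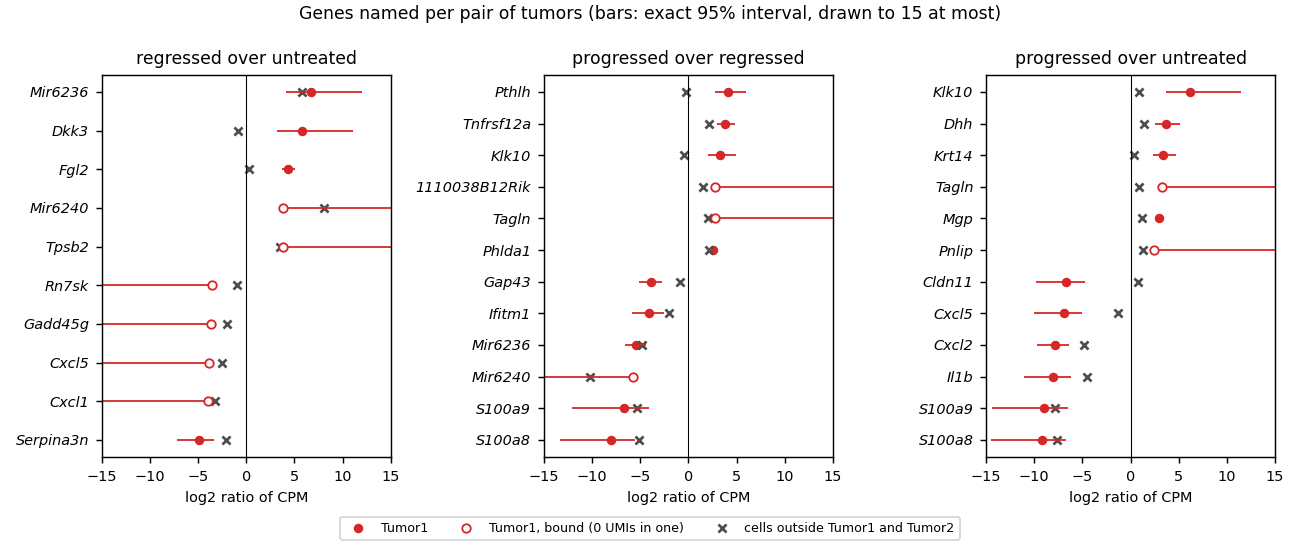
Log2 ratio of CPM for the genes named for each pair of tumors, in Tumor1 (red, filled, with the exact 95% interval; open where a tumor had 0 UMIs and the value is a bound) and in cells outside Tumor1 and Tumor2 (crosses). Fgl2 (4.37 against 0.34), Dkk3 (5.76 against -0.83) and Pthlh (4.11 against -0.27) lie apart from their crosses. Mir6236 in regressed over untreated and Phlda1 lie nearer to theirs. S100a8 in progressed over regressed lies further below 0 than its cross.

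The MAPK cascade runs below Braf, and its 9 targets on the study's list summed to 1328 CPM in untreated, 993 in regressed and 2765 in progressed Tumor1 cells. The log2 ratios were -0.42 (-0.71 to -0.13), 1.48 (1.24 to 1.73) and 1.06 (0.88 to 1.24) for regressed over untreated, progressed over regressed and progressed over untreated. In the surrounding cells they were -0.99, 1.37 and 0.38. Phlda1 gave 51% to 70% of these UMIs, and without it the Tumor1 ratios were 0.36, 0.27 and 0.63, so the direction of the first rested on Phlda1.

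The members did not move together in the contrasts with the regressed tumor. Of 4 with at least 20 UMIs in the untreated and regressed tumors, Dusp6 and Phlda1 were at least 2-fold lower in the regressed one, and the receptor-signalling inhibitor Spry2 and the transcription factor Etv1 at least 2-fold higher, beside 12.6% and 11.7% of all genes. Dusp6, a phosphatase that restrains ERK, stood at 263, 86.1 and 355 CPM, and its log2 ratios were -1.61 (-2.60 to -0.73) and 2.04 (1.25 to 2.97). Etv1 stood at 49.9, 179 and 91.8 CPM, and Spry2 at 81.6, 192 and 115 CPM. Of 9 members measured over regressed, 3 were at least 2-fold higher in the progressed tumor and 1 lower, beside 14.4% and 12.6% of all genes. In progressed over untreated cells 8 of 9 members were higher. At least 2-fold higher were 4 and at least 2-fold lower 0, beside 11% and 6.08% of all genes. The list's median log2 ratios were -0.04, 0.24 and 0.88, beside -0.07, 0.05 and 0.05 over all genes. In cells thinned to 1000 UMIs a target UMI was found in 65.9% (49.4 to 79.9), 44.4% (29.6 to 60.0) and 88.1% (81.8 to 92.8) of Tumor1 cells, and in 52.2%, 38.3% and 57.2% of other cells. Unthinned, these shares were 95.5%, 68.9% and 99.4%, and 82.8%, 64.9% and 85.6%.

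The kinases and GTPases of the RAF, RAS and PI3K pathways showed smaller differences. The 16 genes summed to 1419, 1814 and 1397 CPM, and the log2 ratios between tumors stood at 0.35, -0.38 and -0.02, against 0.17, -0.10 and 0.08. Of 10 members measured, 2 were at least 2-fold higher in regressed over untreated Tumor1 cells, a share near the 11.7% of all genes, among them Nf1, a brake on RAS, with a log2 ratio of 1.35 (0.42 to 2.34) against 0.63. Immediate early genes, which respond to growth signals and also to the handling of tissue, summed to 7964, 3747 and 5383 CPM, and the log2 ratios between tumors stood at -1.09 (-1.23 to -0.95), 0.52 and -0.57. The list was led by Fos, at 3821, 947 and 2262 CPM. In the surrounding cells the list's ratios were -0.77, 0.86 and 0.09.

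The sum of the secreted growth factors was higher in both treated tumors, and Ptn gave most of it. The list of 22 summed to 1296, 3198 and 3052 CPM, and the log2 ratios between tumors stood at 1.30 (1.09 to 1.52), -0.07 and 1.24 (1.06 to 1.42), where the surrounding cells had -0.85, 1.09 and 0.23. Ptn, which encodes pleiotrophin, a mitogen of glia and neurites, gave 66% to 71% of these UMIs and stood at 802, 2430 and 2027 CPM. Without it the list's ratios were 0.64, 0.42 and 1.05. At least 2-fold higher were 2 of 4 members measured in regressed over untreated cells, beside 11.7% of all genes, and 5 of 6 in progressed over untreated cells, beside 11%. Its ratio over untreated was 1.599 (1.34 to 1.87) in the regressed and 1.34 (1.11 to 1.57) in the progressed tumor, against 0.48 and 1.58 in the surrounding cells. Hbegf, a ligand of the EGF receptor, stood at 299, 258 and 664 CPM. Gdnf, the founding ligand of the Gfra receptors, had 0, 1 and 38 UMIs, the last in 29 cells.

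The other genes of the PDGF list were sparse beside Pdgfa, which gave 87% to 91% of its UMIs. The list summed to 825, 960 and 1111 CPM, and the log2 ratios between tumors stood at 0.22 (-0.11 to 0.54), 0.21 (-0.04 to 0.47) and 0.43 (0.20 to 0.67), against -0.42, 0.28 and -0.15. Pdgfb, another ligand, had 17, 4 and 37 UMIs. Pdgfa itself had ratios of 0.30 (-0.04 to 0.65), 0.23 (-0.04 to 0.51) and 0.53 (0.28 to 0.79), of which the last interval only lay above 0. Wnt antagonists summed to 911, 728 and 794 CPM, and the ratios between tumors stood at -0.32, 0.13 and -0.20, against -0.85, 0.23 and -0.62. Within that list Sfrp5 and Dkk3 moved in opposite ways between the untreated and regressed tumors, with log2 ratios of -4.31 (-6.62 to -2.72) and 5.76, and Nkd2, an intracellular inhibitor, stood at 290, 199 and 372 CPM.

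The Schwann cell list had log2 ratios of 0.43 (0.31 to 0.54), -0.33 (-0.42 to -0.23) and 0.10 (0.01 to 0.19), and the last changed sign in other ways of counting given in the closing section. They lay close to the 0.33, -0.22 and 0.11 of the surrounding cells. Cdh19, a cadherin of Schwann cell precursors, stood at 236, 715 and 167 CPM and Scn7a at 240, 748 and 223 CPM, both highest in the regressed tumor, with log2 ratios of 1.601 (1.11 to 2.11) and 1.64 (1.16 to 2.14). Their ratios in the surrounding cells were 1.11 and -0.78. Egfl8 stood at 480.5, 993 and 1004 CPM and Gfap, a glial filament protein, at 27.2, 19.9 and 117 CPM. At least 2-fold higher in regressed over untreated cells were 3 of 11 members measured, beside 11.7% of all genes, and 4 of 13 were at least 2-fold lower in progressed over regressed cells, beside 12.6%. The neural crest list had ratios of 0.54, -0.44 and 0.09, against 0.36, -0.11 and 0.26, with Foxd3, a regulator of crest progenitors, at 81.6, 179 and 47.1 CPM. The 21 melanocyte genes had ratios of 0.83, -1.51 and -0.67, against 0.26, -0.23 and 0.03, which Zeb2 led.

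Antigen presentation differed by class. MHC class I genes summed to 4342, 4230 and 6681 CPM, and the log2 ratios between tumors stood at -0.04 (-0.18 to 0.11), 0.66 (0.54 to 0.78) and 0.62 (0.52 to 0.72), against 0.49, 0.18 and 0.67 in the surrounding cells. B2m, the shared light chain, stood at 2357, 2052 and 3768 CPM and H2-K1 at 408, 358 and 749 CPM. The immunoproteasome subunit Psmb8 stood at 58.9, 52.96 and 155 CPM. MHC class II genes summed to 145, 1258 and 721 CPM, far below other cells for Cd74, the class II chaperone, at 49.9, 556 and 307 CPM against 1783, 3006 and 3062 CPM. Their ratios were 3.12 (2.57 to 3.705), -0.80 and 2.31, against 0.80, -0.0039 and 0.80. All 4 class II genes measured were at least 2-fold higher in regressed over untreated Tumor1 cells, beside 11.7% of all genes. In cells thinned to 1000 UMIs a class II UMI was found in 7.32%, 71.1% and 39.1% of Tumor1 cells and in 25.2%, 70.8% and 36.5% of other cells, so these shares are not read as expression in Tumor1. Unthinned, they were 54.5%, 82.0% and 77.6%, and 59.0%, 89.3% and 78.5%. Of the Cd74 UMIs in progressed Tumor1 cells, 51.6% lay in 1 cell. Without the top cells the list's ratio of progressed over regressed was -1.75.

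The sum of the collagens differed little between tumors in Tumor1. The list of 18 summed to 7964, 9229 and 9154 CPM in Tumor1, and the log2 ratios between tumors stood at 0.21 (0.11 to 0.31), -0.01 and 0.20, where the surrounding cells had -0.87, 0.90 and 0.02. The sign of the first rested on Col3a1, a fibrillar collagen, without which the ratios were -0.04, 0.26 and 0.22, and the median over the members was -0.03, 0.13 and 0.19. Col20a1 was the collagen of the cluster itself, at 1650, 828 and 1432 CPM against 2.59, 27.2 and 6.66 CPM in other cells, with ratios of -0.995 (-1.30 to -0.70) and 0.79 (0.52 to 1.07). Col5a3 was highest in the regressed tumor, at 367, 801 and 301 CPM. Col1a2, a fibrillar collagen of fibroblasts, stood at 739, 781 and 1757 CPM in Tumor1, below the 7138, 3058 and 7514 CPM of other cells. Fibroblast markers as a list had ratios of 0.49, -0.32 and 0.17, against -0.40, 0.52 and 0.12. Without the cell of each tumor that held the most, the Tumor1 ratios were 0.84, -0.26 and 0.58. Free RNA from the many stromal cells was not tested as the source of these markers.

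Adhesion genes summed to 6020, 7375 and 6981 CPM, and the log2 ratios between tumors stood at 0.29, -0.08 and 0.21, against 0.35, -0.18 and 0.17. The tetraspanin Cd9 stood at 2643, 3522 and 3492 CPM, and Mcam, an adhesion molecule of melanoma and vessels, at 544, 675 and 951 CPM against at most 52.6 CPM in other cells. Fn1, which encodes fibronectin, stood at 322, 59.6 and 85.7 CPM, and its ratio over untreated was -2.43 (-3.62 to -1.43) in the regressed tumor and -1.91 (-2.40 to -1.41) in the progressed one, against -1.26 and -0.02. Contractile genes summed to 2579, 2615 and 3471 CPM, and the ratios between tumors stood at 0.02, 0.41 and 0.43, against -0.15, 0.22 and 0.07. Of 9 measured, 5 were at least 2-fold higher in progressed over regressed cells, beside 14.4% of all genes, among them Tagln, the myosin light chain Myl9 (340, 79.4 and 453 CPM) and Cnn2 (104, 46.3 and 267 CPM).

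Matrix proteases and their inhibitors summed to 3808, 3237 and 3108 CPM, and 4 of 12 measured were at least 2-fold higher and 4 lower in regressed over untreated cells, beside 11.7% and 12.6% of all genes. The list's ratio of -0.23, against 0.05, turned to 0.12 in thinned cells. Timp1, an inhibitor of metalloproteinases, stood at 390, 113 and 385 CPM, while Timp2 stood at 286, 675 and 244 CPM, so the 2 inhibitors differed in opposite ways. Mmp17, a membrane-bound protease, was at 131.5, 66.2 and 117 CPM against at most 7.34 CPM in other cells. Chemokines and cytokines summed to 2983, 589 and 680 CPM, and the log2 ratios between tumors stood at -2.34 (-2.68 to -2.02), 0.21 and -2.13, against -1.51, 0.70 and -0.81. Without the top cells of each tumor the first and last became -1.50 and -1.35. Of 8 measured, 6 were at least 2-fold lower in regressed over untreated cells, beside 12.6% of all genes.

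Cdkn2a, whose product restrains the cell cycle and is often lost in melanoma, was detected as RNA in all 3 tumors. It stood at 539, 536 and 478 CPM in Tumor1 against 84.5, 187 and 174 CPM in other cells. The locus itself was not examined. The p53 target Cdkn1a stood at 848, 596 and 465 CPM, a log2 ratio of -0.87 (-1.12 to -0.61) for progressed over untreated, against 0.25. The list of 11 p53 and senescence genes summed to 2212, 1847 and 1738 CPM, and the ratios between tumors stood at -0.26, -0.09 and -0.35, against 0.27, 0.09 and 0.36. Cell cycle genes were few, at 213, 112.5 and 275 CPM, with ratios of -0.92 (-1.81 to -0.09), 1.29 (0.58 to 2.09) and 0.37, against 0.36, 0.31 and 0.67. In cells thinned to 1000 UMIs a cell cycle UMI was found in 7.32%, 11.1% and 15.2% of Tumor1 cells, an order that differs from the CPM, and in 8.86%, 13.7% and 11.4% of other cells. The unthinned shares were 31.8%, 19.7% and 33.97%, and no order is read from them.

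Among the other lists, receptor kinases tied to drug resistance summed to 553, 755 and 624 CPM. Their log2 ratios between tumors stood at 0.45 (0.07 to 0.83), -0.27 and 0.17, against -0.24, 0.33 and 0.08, where thinning turned the first to -0.13, and the receptor Axl stood at 168, 218.5 and 171 CPM. TGF-beta ligands and receptors summed to 585, 1006 and 734 CPM, and the ratios between tumors stood at 0.78 (0.44 to 1.13), -0.46 and 0.33, against 0.01, 0.04 and 0.05, and Ltbp4, which stores the latent ligand in matrix, at 54.4, 232 and 84.5 CPM led that order. EMT factors had ratios of 0.94, -1.56 and -0.62, against -0.16, -0.12 and -0.28. Zeb2 gave 68% to 75% of their UMIs, and without it the ratios were 1.02, -1.07 and -0.06. Perineurial genes had 0.94, -0.94 and -0.01, against 0.74, -0.80 and -0.06. Interferon response genes had 0.05, 0.32 and 0.37, against -0.27, 0.42 and 0.15. Smaller were the ratios of hypoxia and glycolysis genes, at -0.06, -0.04 and -0.11 against -0.25, 0.06 and -0.19. Checkpoint ligands had 0.23 (-0.43 to 0.89), 0.46 (-0.04 to 0.996) and 0.69 (0.24 to 1.17), against 0.14, -0.16 and -0.02. Without Cd47, which gave 57% to 59% of these UMIs, the ratios were -0.52, 0.97 and 0.45.

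**Figure D5:**
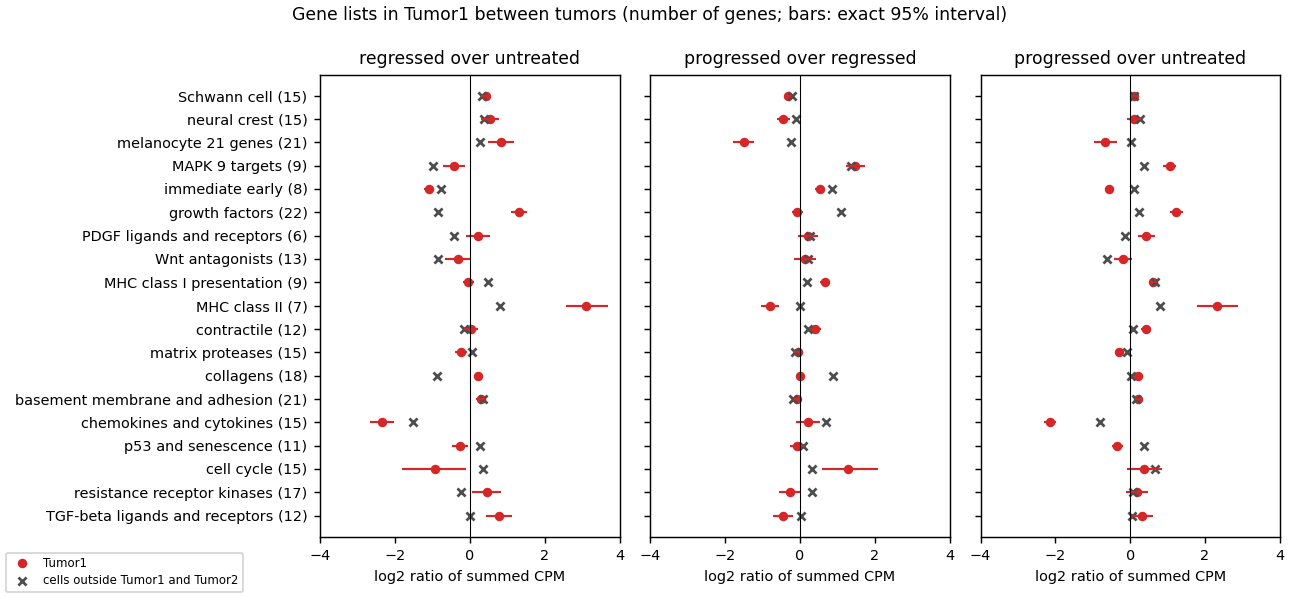
Log2 ratio of the summed CPM of 19 gene lists (rows, with the number of genes) between pairs of tumors (panels), in Tumor1 (red, with exact 95% intervals) and in cells outside Tumor1 and Tumor2 (crosses). Growth factors in regressed over untreated (1.30 against -0.85, and 0.64 without Ptn) lie on the other side of 0 from their cross.

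Tumor1 cells also varied among themselves. After thinning to 1000 UMIs, 1136 genes had a mean of at least 0.1 UMI in every library, and the 8 with the highest lowest Fano factor (variance over mean) were Malat1, Mgp, Apod, Apoe, Aqp1, Cst3, Actb and Gsn. Malat1, a nuclear RNA, had Fano factors of 30.8, 39.3 and 40.6. Apod, a lipid carrier made by Schwann cells, had 27.7, 7.97 and 13.6, and 24.7%, 44.2% and 40.6% of its UMIs lay in 1 cell of each tumor. The water channel Aqp1 was detected in 17.1%, 33.3% and 27.2% of thinned cells, with Fano factors of 11.4, 6.16 and 12.1. Aqp1 was thus detected in a minority of the thinned cells of each tumor, and a cell with 0 UMIs at that depth is not read as lacking it. Malat1 was found in 100%, 100% and 99.3% of the thinned cells and varied in amount. Of the 8 genes, 7 were also among the 8 when cells were thinned to 2000 UMIs.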

How the data were processed

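Single-cell RNA of 3 tumors (1 untreated, 1 regressed and 1 progressed) was analysed from the deposited tables. The counts were made by the authors: per the labels and the study's methods, 3' end droplet libraries were aligned with GSNAP to GRCm38 (mm10), uniquely mapped sense reads over exons were counted as UMIs, cells under 300 UMIs were left out, and cells were clustered with Seurat 2.2.0. The annotation release is not given in the sources used here. The authors' table of cells holds, besides totals, labels (unit other), among them the cluster name, which was kept. No doublet caller was run, and whether the authors removed doublets was not given.

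Each table held 36530 features, of which 31127 were matched to a symbol, and features without one took 3.71% of UMIs and stayed in the totals. Summed counts per library were 4.42% to 6.09% above the totals in the authors' cell table, for a reason not found. Counts of Tumor1 cells were summed per tumor and given as CPM with exact Poisson 95% intervals, ratios with exact conditional binomial intervals and shares with Clopper-Pearson intervals. All cover counting error only. Where a tumor had 0 UMIs of a gene, 3 UMIs per group stood in for it and the fold is a bound. The counting of ratios and intervals was tested on simulated data. A gene counted as past the fold at 2-fold or more with at least 20 UMIs in the pair. With 1 tumor per group no test was possible.

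Members, gene lists and comparisons were chosen with earlier results of these data known. Named genes were the given markers, the 20 genes with the highest lowest ratio over other cells at 50 CPM or more, for each pair of tumors the 6 highest and 6 lowest by the interval bound nearest 0 (haemoglobin, mitochondrial, Y-linked and Xist transcripts left out), the 8 with the highest lowest Fano factor, and members of the lists as examples. Some genes that these rules name are not reported here. Tumor1 and Tumor2 were compared by the 12 highest and 12 lowest genes, a rule added later. The ratio in cells outside Tumor1 and Tumor2 was added after seeing the data, because 349 regressed Tumor2 cells shift the ratio of all other cells. Alternatives were TMM scaling, means per cell, thinning to 1000 UMIs with a fixed seed, other UMI minimums, and leaving out cells. Python 3.11.15 with numpy 2.4.6, pandas 2.3.3, scipy 1.17.1 and matplotlib 3.10.9, and R 4.3.3 with edgeR 4.0.16 for TMM factors, were used.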

Additional observations from a re-analysis of the deposited data

How the results depend on the processing

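No paired analysis was possible because each group held 1 tumor and the labels give no replicate numbers. No tumor was left out, since each is a whole group. Depth limits the regressed cluster most, with 151046 UMIs in 61 cells, and genes under 20 UMIs in a pair were not compared.

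Counts of genes at least 2-fold higher and lower, in the order regressed over untreated, progressed over regressed and progressed over untreated, were 79 and 131, 388 and 167, and 280 and 101 in cells thinned to 1000 UMIs, where fewer UMIs were counted. With a minimum of 50 UMIs they were 114 and 196, 514 and 277, and 328 and 115. With no minimum the counts that moved were 2116 and 1615, 2808 lower, and 1217 and 2009, and with TMM scaling 559 lower in progressed over regressed. The log2 ratio of the MAPK targets in progressed over regressed was 1.86 thinned and 1.83 without the 5% deepest cells, and 1.30 thinned in progressed over untreated. The Schwann cell list in regressed over untreated gave 0.29 with TMM, 0.19 as a mean per cell, 0.27 thinned, 0.27 without the deepest cells and 0.24 without cells with leukocyte UMIs. In progressed over regressed it gave -0.088 with TMM and -0.20 per cell. In progressed over untreated it gave 0.21 with TMM and 0.0036 without the deepest cells, and changed sign to -0.015 per cell and -0.044 without cells with leukocyte UMIs. MHC class I in regressed over untreated gave 0.34 thinned, 0.17 without the deepest cells and 0.15 in reporter-positive cells. In progressed over regressed it gave 0.90 with TMM, 0.47 thinned, 0.47 without the deepest cells and 0.42 in reporter-positive cells, and in progressed over untreated 0.73 with TMM, 0.80 thinned and 0.51 without cells with leukocyte UMIs. Thinning changed the sign of receptor kinases (-0.13), cell cycle genes (0.35) and matrix proteases (0.12) in regressed over untreated, and of matrix proteases (0.024) in progressed over untreated. The share of Tumor1 among cells with a reporter UMI was 5.66%, 5.84% and 14.6%. The cause of these shifts was not tested.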
